A study of Mus musculus with 18 samples.

Results

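The genes described are those of voltage-gated calcium and sodium channels, of the HCN pacemaker channels, of the ryanodine receptors and of calcium pumps, in the cerebellum of mice. They were taken by name: symbols that begin with Cacna, Cacnb or Cacng, symbols of Scn or Hcn followed by a digit, and Ryr1, Ryr2, Ryr3, Atp2b1, Atp2b2, Atp2b3, Atp2a2 and Atp2a3. The annotated array held 40 such genes among 12393, and the probe set with the highest average signal stood for a gene that had several. A total of 29 of the 40 passed the filter on low values, among 8320 genes that passed, and entered the tests. The 11 that did not pass were Cacna1e, Cacna1f, Cacna1s, Cacng1, Cacng6, Cacng8, Scn3a, Scn7a, Scn9a, Scn10a and Scn11a, whose mean log2 signals lay between 3.98 and 5.83. The nearest to the filter were Cacng8 outside it, with a mean of 5.83 and no array above the threshold, and Cacng7 inside it, with a mean of 6.05 and 6 arrays above. Other channel genes that the names would cover were not analysed here.

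The question put to the arrays was how the early response of the cerebellum to oxidative stress depends on ApoD (apolipoprotein D), a lipocalin that carries lipids. Paraquat, a herbicide that cycles electrons to oxygen and generates superoxide, was injected once into the peritoneum at a dose of 30 mg/kg. Its vehicle was 200 µl of saline, which control mice received by itself, and tissue was frozen 6 h later. The mice were males of 80 ± 5 days. The 6 groups were ApoD knock-out mice under paraquat, ApoD knock-out mice under saline, Human-ApoD transgenic mice under paraquat, the same transgenics under saline, wild-type mice under paraquat and wild-type mice under saline. Each group came from 9 mice, whose RNA was combined in equal amounts by 3, so that a group was 3 arrays of separate pools and the spread between arrays is one between pools. The transgene over-expresses ApoD in neurons, per the series' design text. The promoter that drives it, the strain of the mice and the extent of the deletion in the knock-out are not given in the sources used here. The titles name paraquat, and arrays whose titles do not were taken as saline from the protocol.

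Voltage-gated calcium channels open on depolarisation. A pore-forming alpha1 subunit (Cacna1 genes) carries the current, and auxiliary alpha2delta (Cacna2d) and beta (Cacnb) subunits bring the pore to the membrane and tune its gating. Several genes of the gamma family (Cacng) encode TARPs, which carry AMPA-type glutamate receptors to synapses, as stargazin (Cacng2) does in cerebellar granule cells. Voltage-gated sodium channels (Scn) carry the upstroke of the action potential, and HCN channels open on hyperpolarisation and set pacemaking. Ryanodine receptors release calcium from the endoplasmic reticulum, SERCA pumps (Atp2a) take it back, and PMCA pumps (Atp2b) expel it from the cell. In Purkinje cells, the output neurons of the cerebellar cortex, P/Q-type calcium current, resurgent sodium current and fast calcium clearance maintain regular firing, and mouse mutants of Cacna1a, Cacna2d2, Cacnb4, Cacng2, Scn8a and Atp2b2 are ataxic.

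Sequence before the transcription start was available from RefSeq promoter windows (GRCm38.p6) for 30 of the 40 genes, in 42 windows, of which the 250 bases upstream of the start were searched on both strands. A window each of the calcium channel subunit called lower under paraquat, Cacna2d2, and of the genes with the smallest p in the transgenic comparison, Cacnb1 and Hcn2, is shown 5′ to 3′ on the strand of the gene. Cacnb1 had another window (chr11:98018373-98018622, minus strand), which held none of the motifs searched and is not shown. Capitals mark the GC box GGGCGG or its reverse complement, the letters bound by Sp1-family factors.
Cacna2d2 (chr9:107399630-107399879, plus strand): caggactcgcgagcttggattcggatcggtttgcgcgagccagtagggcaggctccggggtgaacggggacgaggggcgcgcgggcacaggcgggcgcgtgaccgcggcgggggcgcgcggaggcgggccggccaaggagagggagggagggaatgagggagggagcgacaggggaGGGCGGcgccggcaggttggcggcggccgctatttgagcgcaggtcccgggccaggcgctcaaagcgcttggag
Cacnb1 (chr11:98022628-98022877, minus strand): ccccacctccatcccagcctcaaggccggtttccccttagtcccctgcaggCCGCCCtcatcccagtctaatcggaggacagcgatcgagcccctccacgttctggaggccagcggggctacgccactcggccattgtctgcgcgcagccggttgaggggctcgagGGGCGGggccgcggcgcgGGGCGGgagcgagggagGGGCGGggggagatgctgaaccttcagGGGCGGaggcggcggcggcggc
Hcn2 (chr10:79716384-79716633, plus strand): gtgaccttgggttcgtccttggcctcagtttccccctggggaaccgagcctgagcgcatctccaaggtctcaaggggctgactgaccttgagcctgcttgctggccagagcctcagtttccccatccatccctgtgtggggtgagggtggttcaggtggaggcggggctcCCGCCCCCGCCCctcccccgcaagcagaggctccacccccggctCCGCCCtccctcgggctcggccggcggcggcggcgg
The GC box occurred in 19 of the 42 windows (45.2%), against 32.7% of the 32851 windows of all genes. TATAAA, the TATA box, occurred in 2 of the 42 windows (4.76%), against 12.4% of all, and the AP-1 site TGANTCA in 1 (2.38%), against 6.75%. The cyclic AMP response element TGACGTCA, the glucocorticoid response element and the E-box CACGTG were found in none of the 42 windows, against 1.55%, 0.387% and 6.02% of all. No motif searched is contained in another, and a match describes the letters of the window only.

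The signals are RMA values on the log2 scale, and a difference of 1 on this scale is a doubling of probe signal. Levels of different probe sets are not comparable, so that each gene was compared only with itself. Apod read 8.22 to 9.83 on the 6 knock-out arrays, 12.13 to 12.35 on the 6 transgenic arrays and 12.38 to 12.76 on the 6 wild-type arrays. The knock-out label was thus borne out by the probe set, and the mouse probe set did not read higher in the transgenic. The tissue label was checked by markers: all 11 granule neuron markers and all 11 Purkinje neuron markers measured passed the filter, and 0 of 10 skeletal muscle markers did. Of the markers measured for neighbouring brain regions 5 of 8 passed too, as did 5 of 6 for choroid plexus. The check thus did not exclude adjoining tissue. The second knock-out paraquat array stood apart from the rest, with a median of 6.98 against 7.10 to 7.15 on the other 17 arrays and a mean correlation with them of 0.957 against 0.970 to 0.986. It was the lowest of the 18 arrays for 15 of the 29 channel genes (51.7%) and for 50.5% of all genes tested. Control probe sets set transgenic arrays apart: the mean of the 18S ribosomal RNA probe sets was 6.59 to 7.82 on transgenic arrays, 5 of 6 of which lay below every other array, and 7.54 to 8.79 on wild-type and knock-out arrays. The dap spike-in averaged 12.0 and 11.5 on the first paraquat and saline transgenic arrays and at most 10.6 on the other arrays, and the 3′ minus 5′ signal of pyruvate carboxylase was 1.95 and 1.82 on the third ones, against 2.25 to 3.16 elsewhere.

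Across the 10 comparisons of groups, 11 of the 29 channel genes were called in at least 1 at a Benjamini-Hochberg adjusted p under 0.05 in limma, and 18 in none. Most calls lay in transgenic against wild-type mice under paraquat, where 10 channel genes differed. The alpha2delta subunit gene Cacna2d2 was the only channel gene called for paraquat against saline, in the knock-out and in the average over genotypes. Comparisons that use the same group share its 3 arrays and are not independent of each other.

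Paraquat in knock-out mice lowered Cacna2d2, which encodes the alpha2delta subunit that Purkinje cells use to traffic P-type channels and whose loss underlies the ducky mouse. Its log2 signal was 9.33, 9.07 and 9.36 in the knock-out paraquat pools and 10.05, 9.99 and 9.63 in the knock-out saline pools. All 3 paraquat arrays lay below all 3 saline arrays. The fitted log2 difference was -0.64 (SE 0.14, limma adjusted p = 0.0171, 3 pools in each group), which is 1.55-fold lower. It was 1 of 29 channel genes called (3.45%), against 2.26% of all 8320 genes tested, and 1.47% of all genes were called lower. The call was lost without the first knock-out saline array (-0.56, adjusted p = 0.121), without the second (-0.59, adjusted p = 0.115) and without knock-out paraquat array 2 (-0.54, adjusted p = 0.0644). It was also lost when only the knock-out arrays were fitted (adjusted p = 0.139) and when Cacna2d2 was the mean of its 3 probe sets (-0.09, adjusted p = 0.698), of which the other 2 read 3.76 to 5.65 and did not pass the filter.

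The sodium channel pore genes had the next smallest p-values in the knock-out under paraquat, without passing the threshold. Scn2a, a pore of axonal sodium channels, read 10.31, 9.92 and 10.48 in the knock-out paraquat pools and 10.68, 10.81 and 10.70 in the knock-out saline pools (log2 fold change -0.49, SE 0.16, adjusted p = 0.105). Scn8a, the pore of resurgent current in Purkinje cells, read 9.89, 9.41 and 10.01 against 10.27, 10.25 and 10.11 (-0.44, SE 0.14, adjusted p = 0.115). In both genes the groups did not overlap, and the second paraquat array was the lowest. Leaving out the third knock-out paraquat array brought both past the threshold, at -0.61 (adjusted p = 0.0338) for Scn2a and -0.56 (adjusted p = 0.0329) for Scn8a, and raised the count of channel genes called to 3. Without the second, neither was past it, with adjusted p up to 0.436.

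Over all 29 channel genes, the median log2 fold change in the knock-out was -0.17, with 22 negative, against a median of -0.09 for the whole set tested. When knock-out paraquat array 2 was dropped, the medians were -0.06 and 0.01, 19 channel genes were negative and 0 were called, while 151 of all genes were (1.81%). Genes of vessels, myelin and other glia moved in the same comparison: 3 of 7 endothelial markers fell (Cldn5, Flt1 and Tek), and the mean of the list was 7.56 to 7.87 in the knock-out paraquat pools and 8.02 to 8.14 in the knock-out saline pools. Of the 11 oligodendrocyte markers 2 fell (Aspa and Car2), and their mean was 10.68 to 11.05 under paraquat and 11.25 to 11.29 under saline. The microglial marker Cx3cr1 (-0.91, adjusted p = 0.00415), 1 of 8 in its list, and the astrocyte marker Sox9 (-0.56, adjusted p = 0.00931), 1 of 11, also fell. None of 11 Purkinje markers was called, and their mean was 11.46 to 11.88 against 11.79 to 11.88. The part of these lists in the Cacna2d2 difference was not tested. In bulk tissue, fewer cells of a type and less RNA per cell cannot be told apart.

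In wild-type mice paraquat changed no channel gene by the test: 0 of 29 were called, against 2% of all genes. At an unadjusted p under 0.05 there was 1 of 29, against 9.96% of all genes, and that gene was Cacna1h, the pore of a low-threshold T-type channel. It read 6.73, 6.66 and 6.81 in the wild-type paraquat pools and 6.18, 6.24 and 6.37 in the wild-type saline pools. It reached the threshold of the filter, 6.30 to 6.40 by array, on 7 of the 18 arrays, and 3 of these were the wild-type paraquat arrays. The groups did not overlap, and the log2 fold change was 0.47 (SE 0.13, adjusted p = 0.0818). It passed the threshold when knock-out paraquat array 2 was dropped (adjusted p = 0.0299) and when the wild-type arrays were fitted on their own (adjusted p = 0.00134). Cacna2d2 read 9.94, 10.12 and 9.95 under paraquat and 10.14, 10.20 and 10.46 under saline in wild-type mice, a difference of -0.27 (SE 0.14, adjusted p = 0.572) with no overlap. Cacnb1 read 6.57, 6.43 and 6.43 against 6.54, 6.74 and 6.77 (-0.21, SE 0.10, adjusted p = 0.507), with overlap.

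In transgenic mice 0 of the 29 channel genes were called for paraquat against saline, as was 0% of all genes. An unadjusted p under 0.05 was found for 2 of the 29, against 1.42% of all genes. Hcn2, which encodes the HCN channel of many central neurons, read 9.17, 8.79 and 8.94 in the transgenic paraquat pools and 8.60, 8.65 and 8.65 in the transgenic saline pools (0.33, SE 0.11, adjusted p = 1). Cacna1a, the pore of P/Q-type channels, read 7.82, 7.86 and 7.86 against 8.05, 7.98 and 8.33 (-0.27, SE 0.10, adjusted p = 1). Neither pair of groups overlapped. Cacna2d3, another alpha2delta subunit, read 8.90, 9.13 and 8.999 under paraquat and 9.24, 9.23 and 9.13 under saline (-0.19, SE 0.12, adjusted p = 1), and the groups overlapped at 9.13.

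Averaged over the 3 genotypes, Cacna2d2 was lower under paraquat, with a log2 difference of -0.29 (SE 0.08, limma adjusted p = 0.0423, 9 pools under each treatment). It was the 1 channel gene called of 29 (3.45%), against 4.89% of all genes called and 2.88% called lower. In the transgenic its own difference was 0.04 (SE 0.14, adjusted p = 1), from 9.91, 9.99 and 10.20 under paraquat and 10.09, 10.15 and 9.73 under saline. Markers of several cell types were lower on average too: 2 of 11 granule neuron markers (Neurod1 at -0.31 and Zic1 at -0.24), 1 of 4 interneuron markers (Tfap2b at -0.36), 4 of 11 oligodendrocyte, 3 of 7 endothelial, 2 of 8 microglial and 1 of 11 astrocyte markers, and no marker of these lists was higher. The part of these cells in the Cacna2d2 difference was not tested. The call was lost in 17 of 28 alternatives, among them the removal of any of 11 single arrays (adjusted p from 0.051 to 0.108). These were wild-type saline arrays 2 and 3, knock-out saline arrays 1 and 2, transgenic saline arrays 1 and 2, wild-type paraquat arrays 1 and 3, knock-out paraquat array 2, and transgenic paraquat arrays 1 and 2. Scn2a followed at -0.31 (SE 0.09, adjusted p = 0.0523). It reached adjusted p = 0.0126 when transgenic saline array 3 was dropped and 0.0202 when knock-out paraquat array 3 was. Cacna1h was at 0.24 (SE 0.08, adjusted p = 0.0794), and at adjusted p = 0.0237 and 0.0300 without paraquat array 2 of the knock-out and of the transgenic. The count was 3 of 29 without knock-out paraquat array 3, against 7.9% of all genes. It was 0 to 2 without any other array, against 3.14% to 7.38%.

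**Figure D1:**
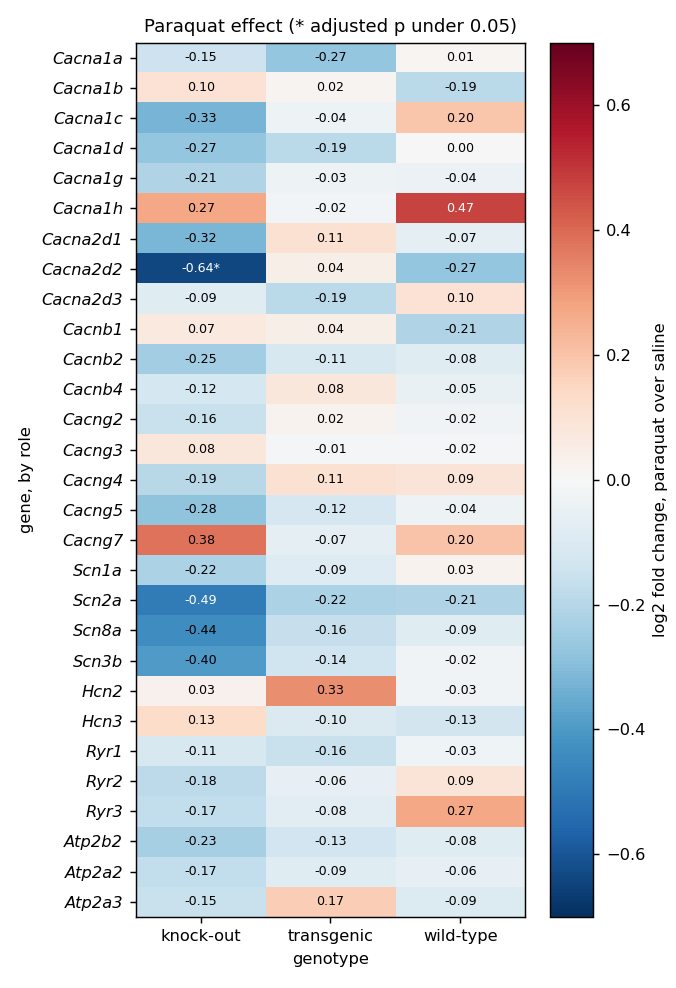
Log2 fold change of paraquat over saline (colour and printed value) for the 29 tested channel genes (rows, by role) in knock-out, transgenic and wild-type mice (columns), from limma with 3 pools a group, where a star marks an adjusted p under 0.05. Cacna2d2 in the knock-out (-0.64) carries the star, and its transgenic value is 0.04.

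The paraquat responses of the 3 genotypes use separate arrays and can be set side by side. Of 29 channel genes, 9 were lower under paraquat in all 3 genotypes (31%, against 27.7% of all genes) and 0 were higher in all 3 (against 13%). Knock-out and wild-type mice shared the sign for 16 of 29 channel genes (55.2%, against 61.6% of all genes), with a correlation over the genes of r = 0.41, against 0.70 over all genes. Transgenic and wild-type mice shared it for 12 of 29 (41.4%, against 53.6%), with r = -0.05 against 0.29. Genes are not independent replicates, and these values are descriptions.

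Tested directly, the paraquat effect differed between knock-out and wild-type mice for 0 of 29 channel genes by limma, as for 0% of all genes. An unadjusted p under 0.05 was found for 1 of 29, against 1.78% of all genes. That gene was Cacna1c, the pore of an L-type channel, with a difference of effects of -0.52 (SE 0.24, adjusted p = 0.868). It read 7.10, 6.34 and 7.32 under paraquat and 7.23, 7.30 and 7.20 under saline in the knock-out, and 7.14, 7.47 and 7.28 under paraquat and 7.18, 6.99 and 7.13 under saline in wild-type mice. The low value lay on the array that stood apart, and without it the difference was -0.23. Cacnb1 had a difference of 0.28 (SE 0.14) and Ryr3 of -0.44 (SE 0.23), both at adjusted p = 0.868, and Cacna2d2 of -0.37 (SE 0.20, adjusted p = 0.868), so that its call in the knock-out alone is not a shown difference from wild-type.

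Between transgenic and wild-type mice the paraquat effect also differed for 0 of 29 channel genes, against 0.18% of all genes. An unadjusted p under 0.05 was found for 2 of 29, against 4.54% of all genes. The difference for Cacna1h was -0.49 (SE 0.19, adjusted p = 0.765): its effect was -0.02 in the transgenic and 0.47 in wild-type mice. For Hcn2 the difference was 0.35 (SE 0.15, adjusted p = 0.972), with effects of 0.33 and -0.03. Cacna1a had a difference of -0.28 (SE 0.15, adjusted p = 1).

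Knock-out and wild-type mice differed in no channel gene by the test under either treatment. The same 3 channel genes had the smallest p-values under both. Under saline 0 of 29 were called, against 0.024% of all genes, and 3 of 29 had an unadjusted p under 0.05, against 1.55%. Under paraquat 0 were called, against 0.012% of all genes, and 9 of 29 had an unadjusted p under 0.05, against 13.2%. The 3 were the alpha2delta subunit genes Cacna2d1 and Cacna2d2, and Cacng7, a TARP-family gene. Cacng7 passed the filter through its knock-out values, so that its place in these counts under both treatments adds no support.

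Cacna2d1 read 7.04, 6.45 and 6.44 in the knock-out paraquat pools and 7.11, 7.74 and 7.51 in the wild-type paraquat pools. The saline arrays read 7.10, 6.91 and 6.89 in the knock-out and 7.68, 7.48 and 7.40 in wild-type mice. The groups did not overlap under either treatment. The log2 fold change was -0.81 under paraquat (SE 0.17, adjusted p = 0.117), or 1.75-fold lower, and -0.56 under saline (SE 0.17, adjusted p = 1). Under paraquat it passed the threshold without the first knock-out array (-1.005, adjusted p = 0.0128) or the first wild-type array (-0.97, adjusted p = 0.0359). Each of these fits called 1 channel gene, against 0.144% and 0.0601% of all genes.

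Cacna2d2 lay below wild-type in the knock-out under both treatments, without overlap in either. The log2 difference was -0.75 under paraquat (SE 0.14, adjusted p = 0.0528), and under saline it was -0.38 (SE 0.14, adjusted p = 1). With the mean of its probe sets the difference was -0.13 under paraquat (adjusted p = 0.536) and -0.16 under saline (adjusted p = 1). Cacng7 read 6.78, 6.78 and 6.53 in knock-out and 6.07, 5.59 and 5.80 in wild-type mice under paraquat, and 6.09, 6.31 and 6.53 against 5.49, 5.64 and 5.73 under saline. These values were higher in every knock-out array than in any wild-type array, with log2 differences of 0.87 under paraquat (SE 0.30, adjusted p = 0.366) and 0.69 under saline (SE 0.30, adjusted p = 1). Cacng7 reached the filter's threshold on 4 knock-out arrays and on the third transgenic arrays, which read 6.58 and 6.91, while the other transgenic arrays read 5.36 to 5.59 and no wild-type array reached it. It was thus tested because of the group where it is high, and its knock-out difference is a description. Fitted on the saline arrays of the 2 genotypes alone, Cacna2d1 had adjusted p = 0.0117, and 3 channel genes were called, against 1.3% of all genes. Cacng7 was among these 3, and its call adds no support, because it passed the filter through its knock-out values.

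**Figure D2:**
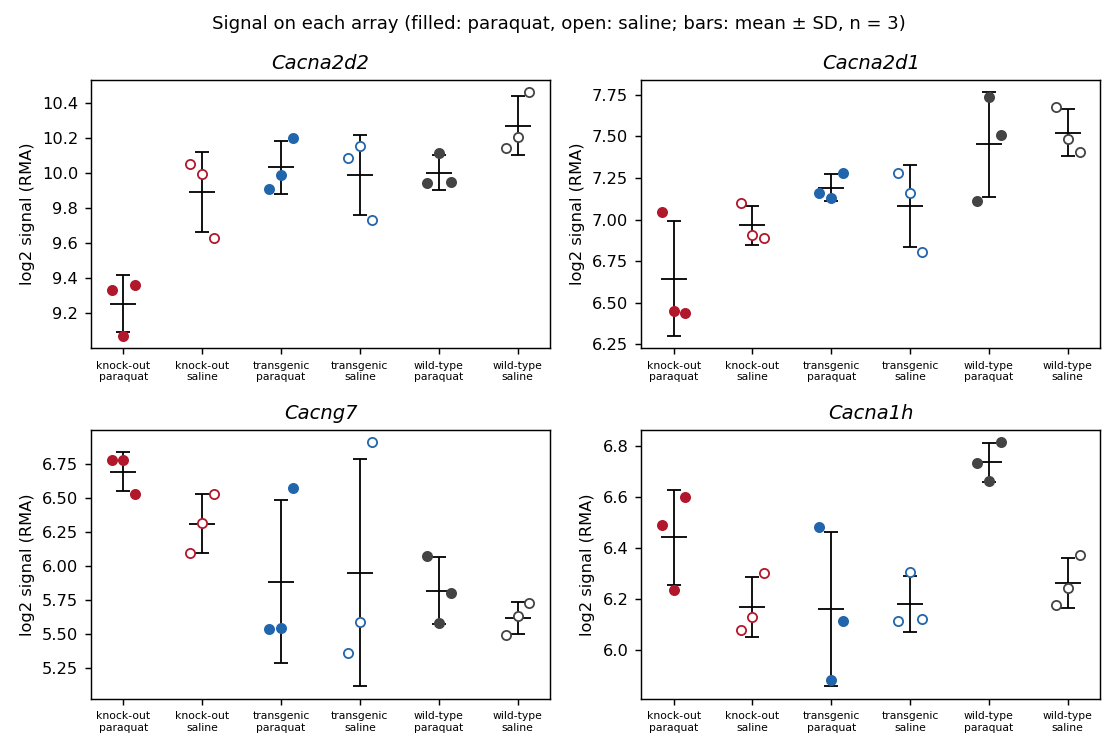
Log2 signal (vertical axis, RMA) of Cacna2d2, Cacna2d1, Cacng7 and Cacna1h in the 6 groups, with a point for each array (filled under paraquat, open under saline) and bars for the mean ± SD (n = 3 pools). Cacna2d2 and Cacna2d1 lie lower and Cacng7 higher on every knock-out array than on any wild-type array of the same treatment, and Cacna1h is highest in wild-type mice under paraquat. Cacng7 passed the filter through its knock-out values, so that its difference is a description.

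Transgenic mice under paraquat differed from wild-type mice under paraquat in 10 of the 29 channel genes (34.5%), against 19% of all genes tested. The 5 higher compare with 4.64% of all genes called higher, and the 5 lower with 14.3% called lower. Higher in the transgenic were Cacnb1, Hcn2, Cacna1b, Cacng4 and Cacna1g, and lower were Ryr3, Cacna1h, Scn1a, Ryr2 and Cacna2d3. In all 10 the 3 transgenic arrays lay apart from the 3 wild-type arrays, which adds no support, since the genes were selected by their p-values on these arrays. The median log2 difference over the 29 channel genes was -0.01, against -0.06 over all genes, so that the 5 and 5 changes went both ways. Without the first wild-type paraquat array 6 channel genes were called, against 10.8% of all genes. Leaving out any other array of the compared groups left 7 to 9, against 9.95% to 15.6% of all genes. Leaving out knock-out paraquat array 2 gave 12, against 33.9% of all genes, and weighting arrays by their spread gave 18, against 49.6%. The mean of probe sets gave 7, against 19% of all genes. Leaving out the first array of both transgenic groups also gave 7, against 18.6%.

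**Figure D3:**
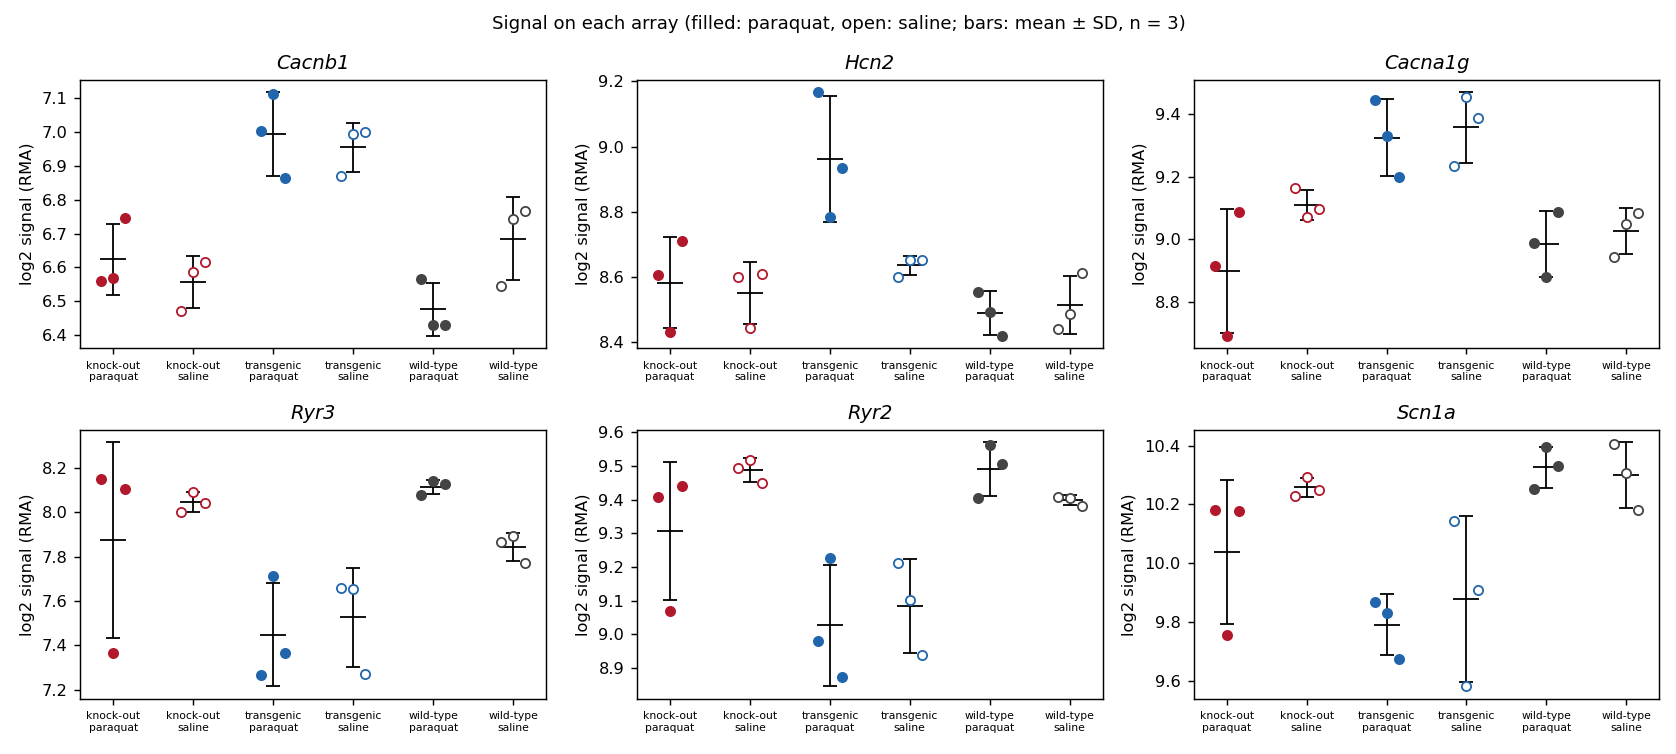
Log2 signal (vertical axis, RMA) of Cacnb1, Hcn2, Cacna1g, Ryr3, Ryr2 and Scn1a, 6 of the 10 channel genes called in transgenic against wild-type mice under paraquat, in the 6 groups, with a point for each array (filled under paraquat, open under saline) and bars for the mean ± SD (n = 3 pools). Under paraquat no transgenic point of these genes lies within the range of the wild-type points.

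Among pore subunits, 2 rose and 1 fell of 6 tested. Cacna1b, the pore of N-type channels at nerve terminals, read 7.07, 7.25 and 7.41 in the transgenic paraquat pools and 6.62, 6.98 and 6.94 in the wild-type paraquat pools, a log2 difference of 0.40 (SE 0.13, adjusted p = 0.0367). Cacna1g, a T-type pore found in Purkinje cells, read 9.44, 9.33 and 9.20 against 8.99, 8.88 and 9.09, a change of 0.34 (SE 0.11, adjusted p = 0.0374). Cacna1h, another T-type pore, went the other way, with 6.48, 5.89 and 6.11 in the transgenic and 6.73, 6.66 and 6.81 in wild-type mice (-0.57, SE 0.13, adjusted p = 0.00581). The Cacna1h difference is between transgenic values near the filter's threshold and wild-type paraquat values that were the highest of all groups. Cacna1a read 7.82, 7.86 and 7.86 against 7.88, 7.84 and 7.91 and was not called (-0.03, SE 0.10, adjusted p = 0.863).

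The calls of Cacna1b and Cacna1g were each lost on leaving out any of several arrays of both groups. Over the 17 alternatives the log2 difference stayed at 0.28 to 0.48 for Cacna1b and 0.28 to 0.43 for Cacna1g. Without the first wild-type paraquat array the adjusted p was 0.191 for Cacna1b and 0.0938 for Cacna1g. Cacna1b also lost its call without the third wild-type paraquat array (adjusted p = 0.05) and without the second (0.0863) or the third (0.135) transgenic array. Cacna1g lost it without the second wild-type array (0.152) and without the first (0.122) or the second (0.0887) transgenic array.

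Among auxiliary subunits, Cacnb1 rose, with the smallest p of the 29 channel genes in this comparison. It encodes a beta subunit known best from the channel of skeletal muscle and also present in brain. It read 7.004, 7.11 and 6.86 in the transgenic paraquat pools and 6.57, 6.43 and 6.43 in the wild-type paraquat pools, 1.43-fold higher (log2 fold change 0.52, SE 0.10, adjusted p = 0.00202). All 3 transgenic arrays read above the highest wild-type array, and the call stood in all 16 alternatives that gave a value. Its other 2 probe sets did not pass the filter and overlapped between these groups, reading 5.05, 4.85 and 5.17 against 4.90, 5.04 and 5.00 on one and 5.46, 5.71 and 5.89 against 5.43, 5.45 and 5.71 on the other. The mean of its probe sets did not pass either, so that this alternative gave no value. The other beta genes, Cacnb2 and Cacnb4, were not called. Cacna2d3 read 8.90, 9.13 and 8.999 in the transgenic and 9.43, 9.27 and 9.42 in wild-type mice, a change of -0.36 (SE 0.12, adjusted p = 0.0433). Its call was lost without wild-type paraquat array 1 (adjusted p = 0.134), 2 (0.0629) or 3 (0.113) and without transgenic paraquat array 1 (0.129) or 3 (0.0877), and with the replicate number as a block (0.0506).

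Of the 5 gamma and TARP genes tested, 1 rose. Cacng4, a TARP, read 8.42, 8.15 and 8.13 in the transgenic paraquat pools and 7.86, 7.90 and 7.82 in the wild-type paraquat pools (0.37, SE 0.11, adjusted p = 0.0254). The call was lost without wild-type paraquat array 1 (adjusted p = 0.0698), 2 (0.0618) or 3 (0.0733) and without transgenic paraquat array 1 (0.109). Stargazin (Cacng2) read 8.44, 8.52 and 8.82 in the transgenic and 8.79, 9.05 and 8.91 in wild-type mice (-0.32, SE 0.12, adjusted p = 0.0725), and the groups overlapped.

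Hcn2 rose and Hcn3 was not called. Hcn2 read 9.17, 8.79 and 8.94 in the transgenic paraquat pools and 8.55, 8.49 and 8.42 in the wild-type paraquat pools, 1.39-fold higher (0.47, SE 0.11, adjusted p = 0.00531). Every transgenic array read above every wild-type array, and the call stood in all 17 alternatives. The knock-out paraquat arrays read 8.60, 8.43 and 8.71.

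Of the 3 ryanodine receptor genes, 2 fell. Ryr3 read 7.27, 7.71 and 7.37 in the transgenic paraquat pools and 8.08, 8.14 and 8.12 in the wild-type paraquat pools, 1.58-fold lower (-0.66, SE 0.16, adjusted p = 0.00891). Ryr2, the receptor known from the heart and widespread in brain, read 8.98, 9.23 and 8.87 against 9.40, 9.56 and 9.51 (-0.47, SE 0.12, adjusted p = 0.00894). In both genes all transgenic arrays were below all wild-type arrays. With a gene taken as the mean of its probe sets, the Ryr3 call was lost (-0.24, adjusted p = 0.0914) and Ryr2 turned to 0.02 (adjusted p = 0.921), through a probe set that read 4.69 to 6.26 and did not pass the filter. Ryr1, the receptor of skeletal muscle that Purkinje cells also carry, read 7.04, 7.32 and 6.95 against 7.17, 7.02 and 7.04 (0.03, SE 0.16, adjusted p = 0.927), with overlap.

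Of the 3 sodium channel pore genes tested, 1 fell. Scn1a, the pore known from inhibitory neurons, read 9.87, 9.83 and 9.67 in the transgenic paraquat pools and 10.25, 10.39 and 10.33 in the wild-type paraquat pools (-0.53, SE 0.13, adjusted p = 0.00929). The highest transgenic array was below the lowest wild-type array. The call was lost with the mean of its probe sets (-0.17, adjusted p = 0.424). Scn2a read 10.06, 10.22 and 9.97 against 10.20, 10.52 and 10.50, and Scn8a 10.22, 10.04 and 9.91 against 9.72, 10.13 and 10.05. Both sets overlapped and neither was called.

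Some markers of other cells differed between the transgenic and wild-type arrays as well. Of all genes 19% were called in this comparison, 4.64% higher and 14.3% lower. Shares called were 60% of the choroid plexus, 42.9% of the endothelial, 27.3% of the astrocyte and 25% of the microglial list. They were below that of all genes for smooth muscle (16.7%), oligodendrocyte (9.09%) and Purkinje markers (9.09%). For neighbouring brain regions the share was near it (20%). Of 5 choroid plexus markers 3 were lower in the transgenic under paraquat (Kcne2, Kl and Otx2), and the mean of the list was 7.31 to 8.30 in the transgenic paraquat pools and 8.55 to 8.74 in the wild-type paraquat pools. Of 11 astrocyte and Bergmann glia markers 3 were higher (Gfap, Slc1a2 and Slc1a3), with list means of 10.68 to 10.81 against 10.55 to 10.62. Among 7 endothelial markers 2 were higher and 1 lower, among 8 microglial markers 2 were lower, and among 11 oligodendrocyte markers 1 was higher. Rgs5, 1 of 6 smooth muscle and pericyte markers, was lower (-0.51, adjusted p = 0.0376), and so was Slc17a6, 1 of 5 markers of neighbouring brain regions (-0.62, adjusted p = 0.00437). The 18S ribosomal RNA signal was 7.46, 6.59 and 6.59 in the transgenic paraquat pools and 8.66, 7.77 and 7.77 in the wild-type paraquat pools, without overlap. In the neuronal lists, 0 of 11 granule neuron markers were called, and 1 of 11 Purkinje markers, Pcp4, was lower. The part of these lists, and of the control probe sets, in the channel differences was not tested.

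Under saline the transgenic mice had 0 of 29 channel genes called against wild-type mice, against 6.36% of all genes. An unadjusted p under 0.05 was found for 8 of 29, against 24% of all genes. The smallest p-values belonged to Cacng4, Scn1a and Cacna1g, in the directions they had under paraquat. Cacng4 read 8.22, 8.26 and 7.88 in the transgenic saline pools and 7.76, 7.68 and 7.87 in the wild-type saline pools (0.35, SE 0.11, adjusted p = 0.0609). Scn1a read 10.15, 9.58 and 9.91 against 10.41, 10.31 and 10.18 (-0.42, SE 0.13, adjusted p = 0.0636), and Cacna1g 9.23, 9.45 and 9.39 against 8.94, 9.05 and 9.08 (0.33, SE 0.11, adjusted p = 0.0744). None of the 3 genes overlapped between the groups, which adds no support, since they were taken by their p-values on these arrays. Without knock-out paraquat array 2, which enters only through the shared spread, 7 channel genes were called under saline, among them these 3 (adjusted p from 0.0153 to 0.0244), against 18.8% of all genes. Without the first transgenic saline array 4 were called, with Cacna1g at 0.0343 and Scn1a at 0.0121, against 15.2% of all genes, and without the third 1 was, Cacng4 at 0.0287, against 2.86%.

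The saline and paraquat comparisons of transgenic with wild-type mice share no array, and 26 of the 29 channel genes had the same sign in both (89.7%, against 78.8% of all genes). The correlation over the channel genes was r = 0.78, against 0.76 over all genes. All 10 genes called under paraquat had the same sign under saline. Cacnb1 read 6.87, 6.99 and 7.0002 in the transgenic saline pools and 6.54, 6.74 and 6.77 in the wild-type saline pools (0.27, SE 0.10, adjusted p = 0.113). Ryr2 read 9.21, 9.10 and 8.94 against 9.41, 9.40 and 9.38 (-0.31, SE 0.12, adjusted p = 0.103), and Ryr3 7.66, 7.65 and 7.27 against 7.86, 7.89 and 7.77 (-0.32, SE 0.16, adjusted p = 0.250). These 3 genes did not overlap between the groups under saline, and none was called. The share of all genes without overlap was not counted, so that the lack of overlap is a description. Hcn2 read 8.60, 8.65 and 8.65 against 8.44, 8.49 and 8.61 (0.12, SE 0.11, adjusted p = 0.534), and Cacna1h 6.12, 6.31 and 6.12 against 6.18, 6.24 and 6.37 (-0.08, SE 0.13, adjusted p = 0.757). Cacna1b read 7.03, 7.22 and 7.42 against 6.99, 7.03 and 7.08, and Cacna2d3 9.24, 9.23 and 9.13 against 9.21, 9.31 and 9.29. These last 4 genes overlapped between the groups. In the choroid plexus list 5 of 5 markers were lower under saline, with means of 6.40 to 7.83 in the transgenic saline pools and 8.66 to 8.89 in the wild-type saline pools.

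**Figure D4:**
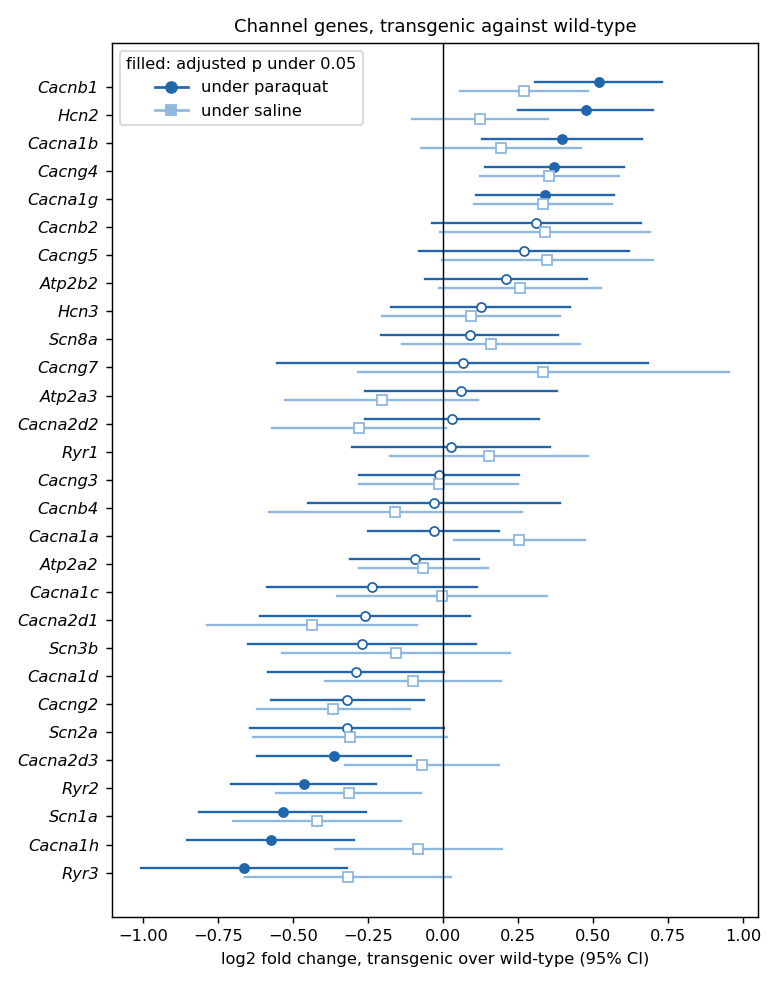
Log2 fold change of transgenic over wild-type mice for the 29 channel genes under paraquat and under saline, with 95% confidence intervals from limma (3 pools a group), where filled points mark genes called at adjusted p under 0.05. The 10 filled points are all under paraquat, and 26 of 29 genes lie on the same side of 0 under both treatments.

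In knock-out mice the 10 genes called in the transgenic were not called in any comparison. Cacnb1 read 6.56, 6.57 and 6.74 in the knock-out paraquat pools and 6.47, 6.59 and 6.62 in the knock-out saline pools. Cacng4 read 7.55, 7.62 and 7.61 against 7.84, 7.83 and 7.70, and Cacna1g 8.92, 8.69 and 9.09 against 9.16, 9.07 and 9.10. For these 3 genes that were higher in the transgenic, every knock-out paraquat array lay below every transgenic paraquat array. Cacna1b read 6.88, 7.28 and 7.09 under paraquat and 6.97, 7.02 and 6.95 under saline, and Hcn2 read 8.60, 8.44 and 8.61 under saline. Of the genes lower in the transgenic, Ryr3 read 8.15, 7.37 and 8.11 under paraquat and 8.002, 8.09 and 8.04 under saline in the knock-out. Ryr2 read 9.41, 9.07 and 9.44 against 9.49, 9.52 and 9.45, and Scn1a 10.18, 9.76 and 10.18 against 10.23, 10.30 and 10.25. In these 3 genes the lowest knock-out value lay on the second paraquat array, the array that stood apart. Cacna2d3 likewise read 9.37, 8.82 and 9.36 against 9.28, 9.28 and 9.26. Cacna1h read 6.49, 6.24 and 6.60 against 6.08, 6.13 and 6.30.

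Other probe sets of the same genes did not always move with the one chosen. When each probe set was fitted singly, an alternative chosen after the data were seen, 43 probe sets of channel genes were tested and 15 called in transgenic against wild-type mice under paraquat (34.9%, against 19.5% of 13118 probe sets). The 5 additional calls were all higher and belonged to the SERCA genes Atp2a2 (0.54, SE 0.16, adjusted p = 0.0220) and Atp2a3 (0.47, SE 0.11, adjusted p = 0.00842), to Scn8a (0.71, SE 0.16, adjusted p = 0.00671) and to the PMCA gene Atp2b2 on both of its other probe sets (0.69 and 0.72, adjusted p = 0.00519 and 0.0134). The chosen probe sets of these genes differed by -0.09, 0.06, 0.09 and 0.21 for Atp2a2, Atp2a3, Scn8a and Atp2b2, and were not called.

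The called falls of Ryr3 and Scn1a were not shared by their other probe sets, for which the differences were 0.18 for Ryr3 (SE 0.14, adjusted p = 0.392) and 0.20 for Scn1a (SE 0.20, adjusted p = 0.503). Over the 14 other probe sets tested, 7 shared the sign of the chosen one. Which transcripts the probe sets of a gene read was not examined here. The other probe set of Scn8a read 8.01, 8.57 and 8.48 in the transgenic paraquat pools and 7.36, 7.73 and 7.85 in the wild-type paraquat pools. The groups lay apart on this probe set and overlapped on the chosen one. It was also the 1 channel probe set called under saline, at 0.62 (SE 0.16, adjusted p = 0.0308), against 6.53% of all probe sets.

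**Figure D5:**
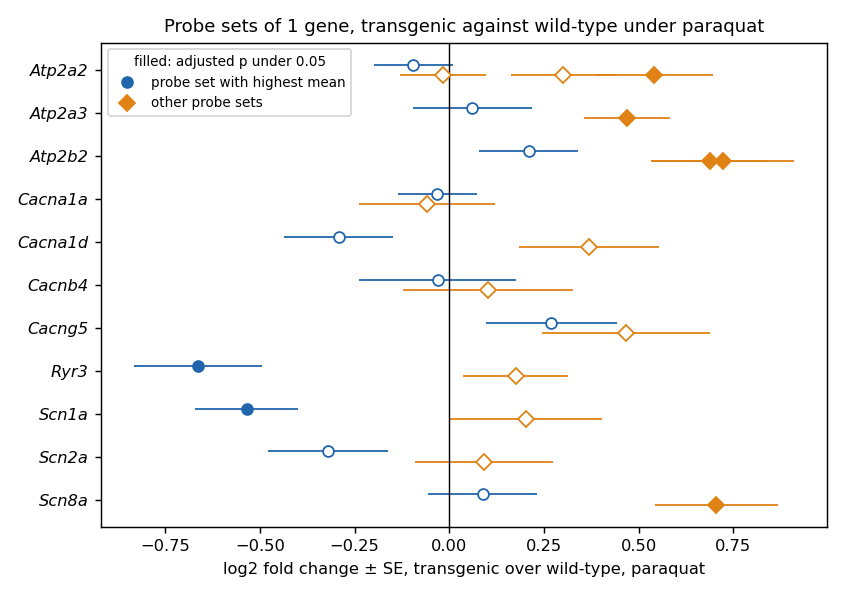
Log2 fold change ± SE of transgenic over wild-type mice under paraquat (horizontal axis) for channel genes with more than 1 probe set tested, each probe set fitted singly in limma, with circles for the probe set of highest mean, diamonds for the others and filled symbols for an adjusted p under 0.05. The probe sets of Ryr3 and Scn1a lie on opposite sides of 0, and the other probe sets of Atp2b2 and Scn8a lie above the chosen ones.

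Defining channels and pumps of cerebellar neurons that were called in no comparison were measured on every array. Cacnb4, a beta subunit abundant in cerebellum and the gene of the lethargic mouse, read 10.93, 10.53 and 11.19 under paraquat and 10.92, 11.14 and 10.96 under saline in the knock-out. It read 10.74, 11.03 and 10.51 under paraquat and 11.17, 10.73 and 10.15 under saline in the transgenic, and 10.68, 10.95 and 10.73 against 10.97, 10.90 and 10.65 in wild-type mice. All groups overlapped, and the log2 fold changes over the 10 comparisons ran from -0.16 to 0.16. Stargazin (Cacng2) had fold changes from -0.37 to 0.05, with 3 of 10 at an unadjusted p under 0.05. It read 8.68, 8.65 and 8.58 under paraquat and 8.91, 8.77 and 8.71 under saline in the knock-out. In the transgenic under saline it read 8.43, 8.76 and 8.53, and in wild-type mice under saline 8.83, 8.85 and 9.13 (-0.37, SE 0.12, adjusted p = 0.0750).

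The pump genes were not called on their chosen probe sets. Atp2a2, the SERCA pump of most cells including Purkinje cells, read 12.86, 12.60 and 12.99 under paraquat and 13.00, 12.99 and 12.98 under saline in the knock-out. It read 12.61, 12.86 and 12.78 against 12.88, 12.86 and 12.77 in the transgenic, and 12.79, 12.84 and 12.91 against 12.88, 12.92 and 12.91 in wild-type mice. The treatment groups overlapped in each genotype, and fold changes ran from -0.17 to 0.09 over the 10 comparisons. Atp2a3, a SERCA pump that cerebellar Purkinje cells also carry, read 9.45, 9.12 and 9.65 against 9.58, 9.59 and 9.51 in the knock-out. It read 9.85, 9.68 and 9.32 against 9.43, 9.76 and 9.14 in the transgenic, and 9.50, 9.50 and 9.66 against 9.63, 9.59 and 9.72 in wild-type mice. Its fold changes ran from -0.20 to 0.27.

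Atp2b2, a PMCA pump that Purkinje cells need for fast calcium extrusion, read 11.48, 11.08 and 11.68 under paraquat and 11.62, 11.68 and 11.64 under saline in the knock-out. It read 11.66, 11.78 and 11.57 against 11.73, 11.85 and 11.83 in the transgenic, and 11.26, 11.49 and 11.63 against 11.60, 11.47 and 11.56 in wild-type mice. Its fold changes ran from -0.23 to 0.26. Ryr1 read 7.14, 6.64 and 7.38 against 7.21, 7.24 and 7.04 in the knock-out, and 7.15, 7.55 and 7.09 in the transgenic under saline, with fold changes from -0.16 to 0.15. None of Atp2a2, Atp2a3, Atp2b2 and Ryr1 had an unadjusted p under 0.05 in any comparison, and all 4 had their lowest reading of the 18 on the second knock-out paraquat array.

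The remaining tested genes, Cacna1d, Cacnb2, Cacng3, Cacng5, Hcn3 and the sodium channel beta subunit Scn3b, were called in no comparison, with log2 fold changes between -0.40 and 0.35. Of these, Scn3b alone had unadjusted p-values under 0.05, in 2 comparisons, and its lowest reading, 6.94, was on the second knock-out paraquat array against 7.36 to 8.05 elsewhere.

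Genes that work with the channels were called in shares near or below those of all genes in the transgenic comparisons. In transgenic against wild-type mice under paraquat, 3 of 13 tested genes of calcium release, store refilling and exchange were called (23.1%, against 19% of all genes), all of them sodium-calcium exchangers: Slc8a3 (0.76, SE 0.17, adjusted p = 0.00514) and the mitochondrial Slc8b1 (0.41, SE 0.10, adjusted p = 0.00952) were higher and Slc8a1 (-0.50, SE 0.16, adjusted p = 0.0374) was lower. The median of this list was -0.11, against -0.06 over all genes. Slc8a3 was also higher under saline (0.69, SE 0.17, adjusted p = 0.0239). Of 26 calcium buffers and sensors 2 were lower under paraquat (7.69%, against 14.3% of all genes called lower), the calmodulin regulator Pcp4 (-0.35, adjusted p = 0.0182) and the calcineurin regulator Rcan2 (-0.50, adjusted p = 0.0313), with a median of 0.02. Under saline the kinase genes Camk2g (0.38, adjusted p = 0.0396) and Camkk2 (-0.50, adjusted p = 0.0380) were called in that list (7.69%, against 6.36% of all genes), which had a median of 0.05 against -0.01 over all genes.

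Of 26 regulators of sodium, calcium and HCN channels, 1 (3.85%) was lower in the transgenic under paraquat: Ank3, the ankyrin that anchors sodium channels at the axon initial segment (-0.39, SE 0.11, adjusted p = 0.0211). The median of this list was 0.04. Under saline 1 was higher, the AMPA receptor auxiliary gene Cnih2 (0.35, SE 0.10, adjusted p = 0.0481). Paraquat lowered Fgf11, a fibroblast growth factor homologue of the family that binds sodium channels, in the knock-out (-0.47, SE 0.12, adjusted p = 0.0461) and on average (-0.27, SE 0.07, adjusted p = 0.0289), and the lysosomal channel gene Tpcn1 on average (-0.26, SE 0.07, adjusted p = 0.0226). Fgf11 was 1 of the 26 regulators called (3.85%) in each, against 2.26% of all genes in the knock-out and 4.89% on average, and Tpcn1 was 1 of 13 in its list (7.69%).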

How the data were processed

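The deposited values are log2 signals, 1 per probe set and array, made by the authors with RMA (background correction, quantile normalisation, median-polish summary), per the submitters' processing notes, which give no version. The log2 scale was inferred from their range of 3.13 to 14.9. Genes were not centred, array medians were 6.98 to 7.15, and which arrays were normalised together is not given in the sources used here. Without scanner files, probe background and scan batches stay unexamined, and the number of arrays limits the precision. Platform annotation, which can be old, gave 1 symbol for 20380 of 22690 probe sets, several for 691 and none for 1555 (64 are controls); only the first kind was used. A gene was its probe set with the highest mean, and was tested when 3 or more arrays had it at or above their 40th percentile. All 18 arrays were fitted with 6 group means in limma 3.58.1 (lmFit, eBayes; R 4.3.3; 12 residual degrees of freedom), with two-sided p-values adjusted by Benjamini-Hochberg over the 8320 genes of each comparison; the text takes its adjusted p-values from this fit unless another is named. A permutation test of 3 against 3 arrays cannot go below p = 0.1 and was not used.

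The channel genes, the lists and the rules were chosen with earlier results of these data known. Array values are given for genes called in any of the 10 comparisons, for the 3 smallest p-values of each, and for defining channels and pumps of cerebellar neurons. Alternatives were no filter, quantile normalisation, median centring, the mean of probe sets, array weights, a trended prior, only the groups compared, a replicate block and each array left out. Probe sets fitted singly, and fits without the arrays numbered 1 or 3 of both transgenic groups, were added after seeing the data. The labels do not say that replicate numbers pair pools, and same-numbered arrays deviated together (correlation over 0.1) in 5 of 9 pairs: 3 of 3 in the transgenic, 2 of 3 in wild-type and 0 of 3 in knock-out mice. The second transgenic pair (r = 0.127) was not best matched by its own number, and pairing was not established in any genotype. A block within genotype, which pairs same-numbered arrays in all 3 genotypes, was fitted as well.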

Additional observations from a re-analysis of the deposited data

How the results depend on the processing

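Of 665 recalculations of the named differences, 569 kept direction and side of the threshold, 49 lost the call, 46 gained it and 1 turned: Ryr2 in transgenic against wild-type mice under paraquat was at 0.021 with the mean of probe sets, where a probe set that did not pass the filter enters. Counts of channel genes called were as follows. For paraquat against saline, array weights gave 2 in wild-type (0 as reported, against 12.7% of all genes) and 5 in knock-out (1, 26.1%). They gave 1 in transgenic (0, 4.92%) and 7 averaged (1, 27.2%). For knock-out against wild-type they gave 4 under saline (0, 2.9%) and 2 under paraquat (0, 0.817%). For transgenic against wild-type they gave 12 under saline (0, 49.4%) and 18 under paraquat (10, 49.6%). The difference of the effect between transgenic and wild-type had 1 (0, 8.26%). Fits of only the groups compared gave 2 for paraquat in wild-type (10.2%) and 0 in knock-out (0.529%). They gave 3 for knock-out against wild-type under saline (1.3%), Cacng7 among the 3. The mean of probe sets gave 0 for paraquat in knock-out (1.93%) and 0 averaged (4.82%). For transgenic against wild-type under paraquat (10 as reported) it gave 7 (19%). In that comparison no filter gave 9 (11.8%) and quantile normalisation 11 (25.2%). Averaged over genotypes, no filter gave 0 (3.04%), median centring 2 (6.38%) and the trended prior 2 (4.94%). The trended prior gave 1 for knock-out against wild-type under paraquat (0.0481%). Quantile normalisation (14%) and median centring (11.5%) gave 4 each for transgenic against wild-type under saline. Without the first transgenic arrays the counts were 0 averaged (3.56%). For transgenic against wild-type they were 4 under saline (16.5%) and 7 under paraquat (18.6%). Without the third transgenic arrays these 3 counts were 2 (5.89%), 1 (3.8%) and 9 (17.3%). Leaving out single arrays gave 0 to 1 for paraquat in wild-type (0.986% to 4.24%), with 1 without the second knock-out paraquat array. Counts were 0 to 3 in knock-out (0.757% to 7.38%) and 0 to 3 averaged (3.14% to 7.9%). For knock-out against wild-type under paraquat they were 0 to 1 (0.012% to 0.144%). For transgenic against wild-type they were 0 to 7 under saline (1.3% to 18.8%) and 6 to 12 under paraquat (9.95% to 33.9%). The causes of these shifts were not tested.

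Correlations of deviations between same-numbered arrays were 0.13 to 0.42 in the transgenic, where all 3 pairs passed 0.1. They were 0.086 to 0.34 in wild-type and -0.28 to -0.093 in knock-out mice. The same number was the best match in 5 of 9 pairs, among them every wild-type pair and no knock-out pair. The block within genotype nevertheless pairs same-numbered arrays in all 3 genotypes, the knock-out included. With a replicate block the averaged paraquat comparison had 0 channel genes called (1 as reported, 4.82% of all genes), with Cacna2d2 at adjusted p = 0.0567. Transgenic against wild-type under paraquat had 9 (10 as reported, 19.4% of all genes), with Cacna2d3 at 0.0506. The block changed no other count of calls among the 10 comparisons. With the block within genotype, 0 channel genes were called for paraquat in the transgenic, against 0.012% of all genes. Averaged over genotypes, the 1 called was Scn2a (adjusted p = 0.0329) in place of Cacna2d2 (0.0544), against 5.59% of all genes. Depth in the sense of signal limits Cacna1h and Cacng7, which lie near the threshold of the filter, and the 11 untested genes.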
